A study of Homo sapiens with 23 samples.

Results

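H4K12ac, histone H4 acetylated at lysine 12, was compared with H3K27ac, histone H3 acetylated at lysine 27, through the peak lists of their chromatin immunoprecipitation libraries (ChIP-seq). All samples labelled with either mark were taken, which gave 4 of the 23 samples of the series: 2 replicate libraries of H4K12ac and 2 of H3K27ac. The cells were NCI-H23, an established human non-small cell lung cancer line. The H4K12ac libraries were made with a rabbit polyclonal antibody and the H3K27ac libraries with a mouse monoclonal antibody. The series covers 11 targets with 2 libraries each and 1 input library, which was not used here. The shared culture protocol names JQ1, an inhibitor of BET bromodomains, and DMSO, the vehicle. No sample is labelled with either, and treatments were not compared. The labels do not say whether the replicates were separate cultures, so the spread between them may be technical.

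Acetylation of a lysine removes the positive charge that helps the histone tail hold DNA, and it creates a site that bromodomain proteins such as BRD2 can bind. H3K27ac is written by EP300 and CREBBP and is the customary mark of active promoters and active enhancers. H4K12ac lies on H4, another core histone of the same particle. It is found on newly made histone H4, where HAT1 places it, and at active genes, where other acetyltransferases write it. H3K4me3 is the classical mark of promoters. H3K4me1 without H3K4me3 is typical of enhancers, and H3K36me3 of the bodies of transcribed genes.

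The lists held 119508 and 98570 H3K27ac regions in replicates 1 and 2, and 90120 and 79984 H4K12ac regions, at a q (false discovery rate given by the peak caller) of at most 0.05. H3K27ac covered 96.8 and 109 Mb of the genome, whereas H4K12ac covered 43.9 and 38.1 Mb. H3K27ac regions were wider, with a median of 412 and 510 bp and a 90th percentile of 1819 and 2520 bp. The H4K12ac medians were 313 and 309 bp, and the 90th percentiles 978 and 956 bp. Fewer H4K12ac peaks were strong calls: 26.96% and 25.7% had a −log10 q of at least 5, compared with 44.7% and 56.5% of H3K27ac peaks. The bases covered by both replicates, divided by those covered by either, came to 0.422 for H4K12ac and 0.520 for H3K27ac. The lists give no read numbers, so the depth of the libraries is unknown. A region without an H4K12ac peak is therefore one where none was called, not one shown to lack the mark.

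Most H3K27ac regions held no H4K12ac peak, while most H4K12ac regions lay on H3K27ac. A region counted as holding the other mark when at least 1 bp was shared. For H3K27ac replicate 1 the share holding H4K12ac was 27.2% with H4K12ac replicate 1 and 24.9% with replicate 2. For H3K27ac replicate 2 the shares were 31.8% and 29.3%. The mean was 28.3% ± 3.18 (SD between the 2 H3K27ac libraries, n = 2, as for every ± below unless stated otherwise). Each library was first averaged over the lists of the other mark, so the SD leaves out the spread between those lists. The 4 values do not overlap between the H3K27ac libraries, and within each of them the longer H4K12ac list gave the higher share. In the other direction, H4K12ac replicate 1 held H3K27ac in 55.1% and 57.7% of its regions, and H4K12ac replicate 2 in 57.8% and 60.2%, a mean of 57.7% ± 1.88 (SD between the 2 H4K12ac libraries, n = 2). These 4 pairings of libraries are the background for the shares given below. The 95% Wilson interval of the first share ran from 26.9% to 27.4%; this interval covers counting error alone and takes each region as an independent draw. An exact two-sided test of 2 libraries against 2 cannot give a p below 0.333. Differences are therefore given with the spread between libraries and the number of pairings that show them, without a test.

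Wide H3K27ac regions held H4K12ac far more often than narrow ones. Among regions under 500 bp, 11.3%, 9.57%, 12.7% and 10.7% held H4K12ac in the 4 pairings of libraries, a mean of 11.1% ± 0.908. The mean was 25.4% ± 0.497 for regions of 500 to under 1000 bp and 56.5% ± 3.93 for those of 1000 to under 2000 bp. It reached 80.3% ± 6.28 from 2000 to under 4000 bp. Regions of at least 4000 bp, of which the H3K27ac lists held 2649 and 4278, held H4K12ac in 96.8%, 95.7%, 91.9% and 89.2% of cases, a mean of 93.4% ± 3.98. The order of the 5 width classes was the same in every pairing. The difference between wide regions (at least 2000 bp) and narrow ones (under 1000 bp) was 73.3, 73.3, 64.9 and 64.1 percentage points, a mean of 68.9 ± 6.21.

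A wider region meets more peaks through its extent alone, so 2 measures that do not grow with extent were set beside the share. The first was a window reaching 250 bp to either side of the strongest H3K27ac summit, which has the same size in every class. H4K12ac met 12.2% ± 0.865 of these windows in regions under 500 bp and 85.7% ± 5.66 in regions of at least 4000 bp. The difference between wide and narrow regions was 64.8, 64.5, 56.7 and 55.6 percentage points in the 4 pairings, a mean of 60.4 ± 5.99. The second measure was the share of bases. H4K12ac covered 8.10% ± 0.756 of the bases of regions under 500 bp and 41.0% ± 8.61 of those of regions of at least 4000 bp. Even in the widest class H4K12ac covered less than 50% of the H3K27ac bases in all 4 pairings, the highest value being 49.6%. Neither measure matched the width classes for H3K4 methylation or for the strength of H3K27ac, which also differed between them.

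**Figure D1:**
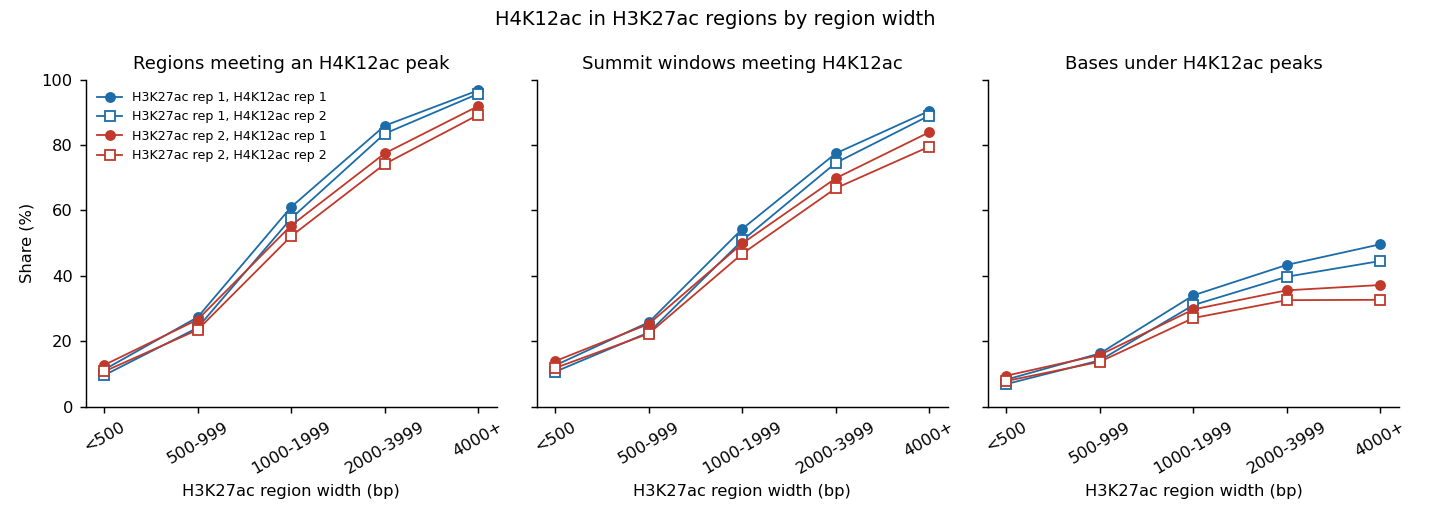
Share (%) of H3K27ac regions that met an H4K12ac peak (left), of summit windows (250 bp to either side) that met one (middle), and of H3K27ac bases under H4K12ac peaks (right), by width class of the H3K27ac region. Each line is 1 of the 4 pairings of libraries; all 3 measures are lowest under 500 bp, and regions of at least 4000 bp reach a mean of 93.4% on the left, 85.7% in the middle and 41.0% on the right.

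Promoter-like H3K27ac regions held H4K12ac far more often than enhancer-like ones. Regions were put in the H3K4me3 context when they met a peak in both H3K4me3 lists. The H3K4me1 context took those that met both H3K4me1 lists and neither H3K4me3 list. Regions of these contexts are also called, in this order, promoter regions and enhancer-like regions. The names rest on overlaps of at least 1 bp alone, since gene starts were not used. The H3K4me3 context held 19221 and 20345 H3K27ac regions in replicates 1 and 2, and 80.0%, 78.9%, 79.5% and 78.6% of them held H4K12ac in the 4 pairings, a mean of 79.3% ± 0.278. The H3K4me1 context was larger, with 43648 and 39273 regions, and its shares were 28.4%, 24.5%, 29.96% and 25.5%, a mean of 27.1% ± 0.907. Where none of the 4 H3K4 methylation lists had a peak, 32347 and 18321 H3K27ac regions remained, and 4.79% ± 0.448 of them held H4K12ac. The other 24292 and 20631 regions met the methylation lists in part and had a share of 11.1% ± 0.196. The H3K4me3 context lay above the H3K4me1 context by 51.6, 54.4, 49.6 and 53.1 percentage points, a mean of 52.2 ± 1.19.

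The contexts differed in width, so they were also read class by class. H3K27ac regions had a median width of 1413 and 1528 bp in the H3K4me3 context and of 507 and 619 bp in the H3K4me1 context. Within each of the 5 width classes the H3K4me3 context had the higher share in every pairing. Under 500 bp the shares were 41.7% ± 0.586 and 14.7% ± 0.0551, and the latter ran from 13.0% to 16.4% over the 4 pairings. From 1000 to under 2000 bp they were 89.7% ± 1.47 and 39.8% ± 4.004. At 4000 bp and above they came closer, at 98.9% ± 0.619 and 85.5% ± 6.08. With both contexts weighted to the same widths, the difference was 33.8, 36.5, 36.02 and 39.6 percentage points, a mean of 36.5 ± 1.84. H3K4me3 regions of 1000 to under 2000 bp held H4K12ac at least as often as H3K4me1 regions of 4000 bp and above in all 4 pairings, with 91.2% and 91.1% in the first pairing and 88.1% and 78.5% in the last. The H3K4me3 context made up 5.50% and 7.71% of regions under 500 bp and 64.6% and 52.1% of those of at least 4000 bp. Within it, wide and narrow regions held H4K12ac in 97.5% ± 0.604 and 53.9% ± 0.821 of cases. Within the H3K4me1 context the shares were 66.6% ± 7.14 and 18.1% ± 0.367. Both gaps were smaller than the gap over all regions.

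**Figure D2:**
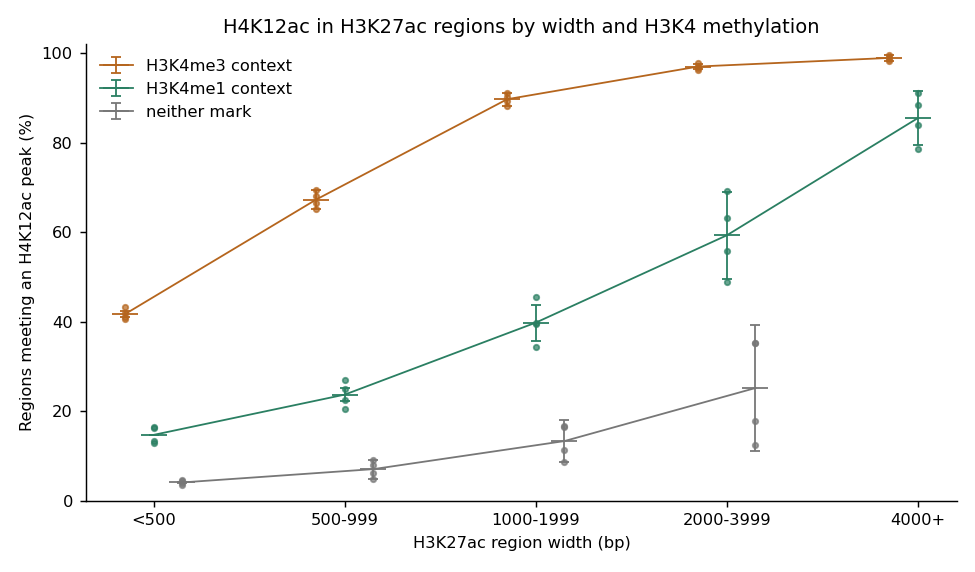
Share (%) of H3K27ac regions that met an H4K12ac peak, by width class of the region (bp), for regions in the H3K4me3 context, in the H3K4me1 context, and with neither mark (regions of at least 4000 bp left out for the last, since only 2 and 3 exist). Points are the 4 pairings of libraries, crossbars their mean and error bars the SD between the 2 H3K27ac libraries; the H3K4me3 points lie above the H3K4me1 points in each class, at 89.7% and 39.8% from 1000 to under 2000 bp.

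The contexts also differed in how strong H3K27ac itself was. The fold enrichment of a peak is the authors' value, a ratio to the local background of the peak caller. Its median was 24.3 and 20.1 in H3K4me3 regions of 1000 to under 2000 bp and 6.31 and 5.86 in H3K4me1 regions of that width, in H3K27ac replicates 1 and 2. Each width class was therefore split into quartiles of H3K27ac fold, which gave 20 strata. The H3K4me3 context had the higher share in 17, 18, 19 and 20 of the 20 strata in the 4 pairings. Every exception lay in regions of at least 2000 bp and in the upper quartiles of fold, where both shares were at least 99.6%. A well-filled example is the third quartile of regions of 1000 to under 2000 bp, with 1735 and 1521 promoter regions and 1634 and 1749 enhancer-like ones. There the shares were 85.5% ± 1.89 and 51.3% ± 5.52. Weighted to the same widths and folds, the difference was 24.8, 27.1, 24.1 and 27.3 percentage points, a mean of 25.8 ± 0.166, compared with 36.5 when widths alone were matched. This last weighting was chosen after the data had been seen.

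Inside each context, stronger H3K27ac regions mostly held H4K12ac more often too. In H3K4me1 regions of 2000 to under 4000 bp the share was 49.8% ± 9.72 in the lowest quartile of H3K27ac fold, 66.0% ± 12.6 in the second and 86.2% ± 8.39 in the third. The top quartile of that class held only 34 and 30 such regions, with 94.2% ± 8.25. In H3K4me3 regions of 500 to under 1000 bp the share went from 42.6% ± 0.974 in the lowest quartile to 73.9% ± 1.45 in the top one. In H3K4me1 regions under 500 bp the shares were closer, with 13.6% ± 0.478 in the lowest quartile and 17.9% ± 1.75 in the top one.

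To set H4K12ac beside the other H4 acetylation marks, all of them were read at equal numbers of peaks. H4K5ac and H4K8ac carry a single acetyl group on the same tail, and H4K5acK8ac carries both of those. With the 10000 strongest peaks of each list, H4K12ac met 37.0% ± 0.227 of the H3K27ac regions in the H3K4me3 context and 2.16% ± 0.204 of those in the H3K4me1 context (SD between the 2 libraries of the H4 mark, n = 2, in this paragraph). The ratio of the shares was 16.03 and 18.5 in its 2 libraries. It was 13.0 and 10.4 for H4K5acK8ac, 10.4 and 10.3 for H4K5ac, and 9.32 and 4.79 for H4K8ac, whose second library had a much weaker list. H4K12ac had the highest ratio, and its libraries did not overlap with those of the other 3 marks. The order of H4K12ac above the others was also seen at 20000 peaks, with 8.48 and 9.47 against at most 6.62, and at 40000 peaks, with 4.50 and 4.95 against at most 3.70. All ratios were lower with more peaks. In wide regions alone the libraries of H4K12ac overlapped with those of another mark at 40000 peaks, with ratios of 1.98 and 2.13 against 2.05 and 1.56 for H4K8ac. Over all regions at 40000 peaks H4K12ac met 70.7% ± 0.347 of promoter regions, H4K5ac 77.1% ± 0.154 and H4K5acK8ac 86.0% ± 2.39. In the H3K4me1 context the shares of these marks were 15.0% ± 1.10, 24.6% ± 0.484 and 28.0% ± 1.71. H4K12ac was lower than both in either context. Equal numbers of peaks are not equal extents. Over the whole lists the median width was 313 and 309 bp for H4K12ac, 344 and 367 bp for H4K5ac and 488 and 599 bp for H4K5acK8ac. The part of peak width, and of the division of regions into several peaks, was not tested. H4K8ac met 49.3% ± 11.0 of promoter regions and 15.3% ± 0.115 of H3K4me1 regions, so it lay below H4K12ac at promoters and beside it in the H3K4me1 context.

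**Figure D3:**
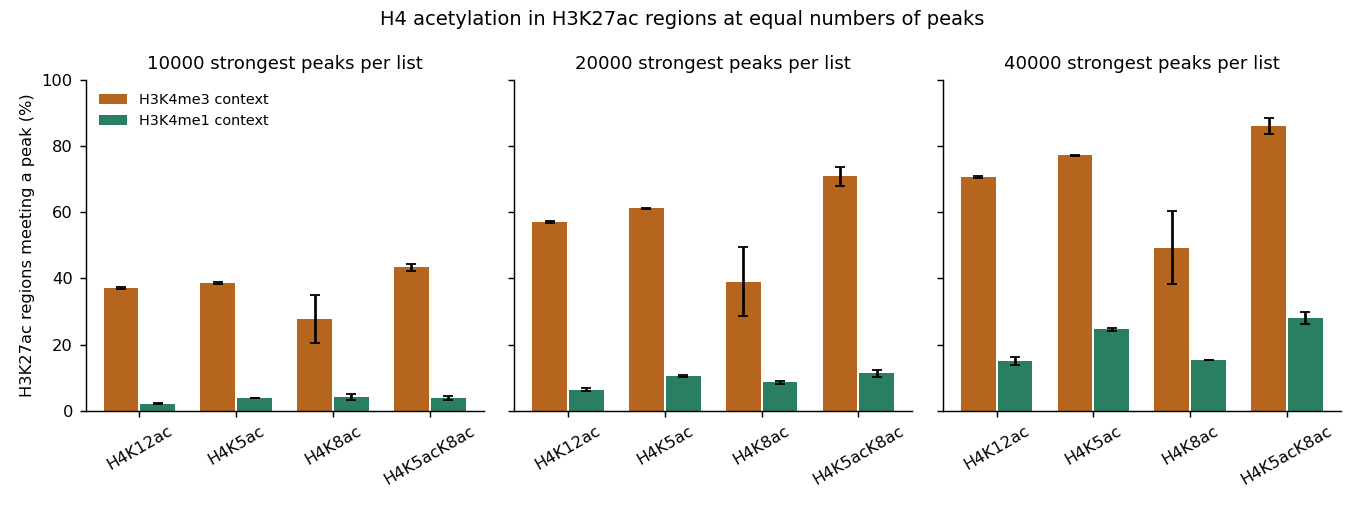
Share (%) of H3K27ac regions that met a peak of H4K12ac, H4K5ac, H4K8ac or H4K5acK8ac, in the H3K4me3 context and in the H3K4me1 context, with the 10000, 20000 or 40000 strongest peaks of each list. Bars are means over the pairings with both H3K27ac lists and error bars the SD between the 2 libraries of the H4 mark; at 10000 peaks H4K12ac stands at 37.0% and 2.16%.

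Inside wide H3K27ac regions, H4K12ac lay in a median of 2 pieces where it was called and was set back from the edges. The lists held 10291 and 13983 regions of at least 2000 bp, 6304 and 7544 of them in the H3K4me3 context and 3617 and 5826 in the H3K4me1 context. Those in the H3K4me3 context that held H4K12ac had a median of 2 separate H4K12ac peaks, and between 38.02% and 39.7% of them had 3 or more. The other H3K27ac replicate, read in the same way, had a median of 1 peak there. In the H3K4me1 context H4K12ac again had a median of 2, with 3 or more in 25.8% to 31.9% of the regions that held it. The other H3K27ac replicate had a median of 1 in regions of H3K27ac replicate 1 but of 2 in those of replicate 2, where 32.1% had 3 or more, so H4K12ac was not the more divided mark there. From the region's edge to the first H4K12ac base the median distance was 319 and 380 bp in regions of H3K27ac replicate 1 and 445.5 and 511 bp in those of replicate 2. In the H3K4me1 context these distances were longer, at 668 and 784.5 bp and at 1047.5 and 1153.5 bp. H4K8ac shared both traits in the H3K4me3 context, with a median of 2 pieces and edge distances of 410 to 913.5 bp. H4K5ac also had a median of 2 pieces there but shorter distances, of 103 to 196 bp. H4K5acK8ac had a median of 1 or 2 pieces and distances of 79 to 224.5 bp. H4K12ac covered a median of 57.7%, 54.2%, 53.4% and 49.9% of a promoter region that held it, and of 31.2%, 25.6%, 21.3% and 17.8% of an enhancer-like one. The values of the contexts do not overlap.

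Coverage was highest at the centre of the region in every pairing. Each wide region was cut into 5 equal steps from the nearer edge to the centre. H4K12ac covered between 14.1% and 27.5% of the bases of the outermost step and between 44.3% and 56.2% of those of the innermost. In the H3K4me3 context the innermost step was covered to between 60.1% and 66.1%, and in the H3K4me1 context to between 23.8% and 37.5%. This rise was not particular to H4K12ac. The other H3K27ac replicate went from 85.9% in the outermost step to 96.7% in the innermost in regions of H3K27ac replicate 1. In regions of replicate 2 it went from 54.0% to 87.9%. Whether H4K12ac summits were more central than the H3K27ac summits of the other replicate depended on the H3K27ac library. In the middle 50% of the width lay 57.5% and 58.9% of the H4K12ac summits in regions of H3K27ac replicate 1, and 69.3% of the H3K27ac summits of replicate 2. In regions of H3K27ac replicate 2 the shares were 62.2% and 63.1%, against 60.4% of the H3K27ac summits of replicate 1. The difference was −11.8, −10.4, 1.82 and 2.71 percentage points, a mean of −4.41 ± 9.44, so it did not exceed the spread between libraries and had no single direction.

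The bases under H3K4me3 carried more H4K12ac than the flanks of the same regions. In wide regions of the H3K4me3 context, H4K12ac covered 58.2% ± 1.68 of the bases under peaks of both H3K4me3 lists and 37.9% ± 5.26 of the other bases. The difference was 15.7, 19.8, 21.1 and 24.5 percentage points in the 4 pairings, a mean of 20.3 ± 3.59. Wide regions of the H3K4me1 context were covered to 21.5% ± 6.35, less than the flanks of the promoter regions. H3K4me1 was arranged the other way, with 41.05% ± 0.525 under H3K4me3 and 83.9% ± 5.69 of the other bases. Among the other acetylation marks the same difference was 16.2 ± 0.931 percentage points for H4K5acK8ac and 8.16 ± 0.824 for H4K5ac. For H4K8ac it was 4.63 ± 3.31, and its libraries differed in sign, with 8.85 and 15.7 for library 1 and −4.26 and −1.77 for library 2. It was 12.1 ± 8.38 for the other H3K27ac replicate. For BRD2, the bromodomain reader of acetylated H4, it was 21.3 ± 0.669. The BRD2 libraries differed, with 15.05 and 15.4 for library 1 and 26.5 and 28.0 for library 2, so their differences in points span those of H4K12ac. The levels behind these points were unlike. BRD2 covered 28.2% ± 0.591 of the bases under H3K4me3 and 6.98% ± 1.26 of the other bases, so relative to its coverage it was the more concentrated under H3K4me3.

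Around the strongest H3K27ac summit of a wide promoter region, the H4K12ac summits showed 2 crests. At the H3K27ac summit itself 91.0% ± 0.104 of the positions lay under an H4K12ac peak in the H3K4me3 context. At 300 bp the share was 62.8% ± 0.0996, at 600 bp 62.4% ± 2.23, at 1000 bp 49.5% ± 3.94 and at 2000 bp 32.7% ± 4.44. The H4K12ac summits formed a second crest over these distances. Their density was 2.71, 2.70, 2.84 and 2.80 per kb of region within 100 bp of the H3K27ac summit in the 4 pairings. Between 200 and 400 bp it was 0.361, 0.386, 0.343 and 0.365 per kb, and between 500 and 700 bp it was 0.778, 0.795, 0.737 and 0.740 per kb. From 1000 to 1500 bp it was 0.458 ± 0.0242 per kb. The outer crest stood above the trough by a factor of 2.10 ± 0.0155, with 2.02 to 2.16 over the 4 pairings. Each peak has 1 summit and the peaks of a list do not overlap, so summits of a mark near its own central peak are sparse by construction; the part of this in the trough was not tested.

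The same factor was 2.40 ± 0.0994 for H4K5ac, 2.29 ± 0.209 for H4K5acK8ac and 2.01 ± 0.168 for H4K8ac. It was lower for the other H3K27ac replicate, at 1.31 ± 0.00252, for BRD2, at 1.29 ± 0.0897, and for H3K4me3, at 1.33 ± 0.122. The other H3K27ac replicate had a median of 1 peak per wide promoter region that held it. As each peak gives 1 summit, the division of each list into peaks bears on this comparison of marks, and its part was not tested. For H3K4me1, whose coverage increased outward, the mean was higher than for any H4 mark, at 2.73 ± 0.256, though its range of 2.38 to 3.07 overlapped with theirs. In wide regions of the H3K4me1 context H4K12ac had no outer crest of that size: the factor was 1.16, 1.09, 0.971 and 0.910 in the 4 pairings, a mean of 1.03 ± 0.129. It lay above 1 in both pairings with regions of H3K27ac replicate 1 and below 1 in both with those of replicate 2. There 43.8% ± 5.96 of the H3K27ac summits lay under an H4K12ac peak, and the share was 28.8% ± 5.39 at 300 bp and 14.5% ± 5.81 at 2000 bp. H3K4me1 itself covered 22.3% ± 2.66 of the H3K27ac summits of wide promoter regions and 73.5% ± 2.01 of the positions at 2000 bp. The strongest H4K12ac summit of a wide promoter region lay within 250 bp of the strongest H3K27ac summit in 53.4% to 58.9% of the regions that had one. The corresponding range in the H3K4me1 context was 45.5% to 48.2%.

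**Figure D4:**
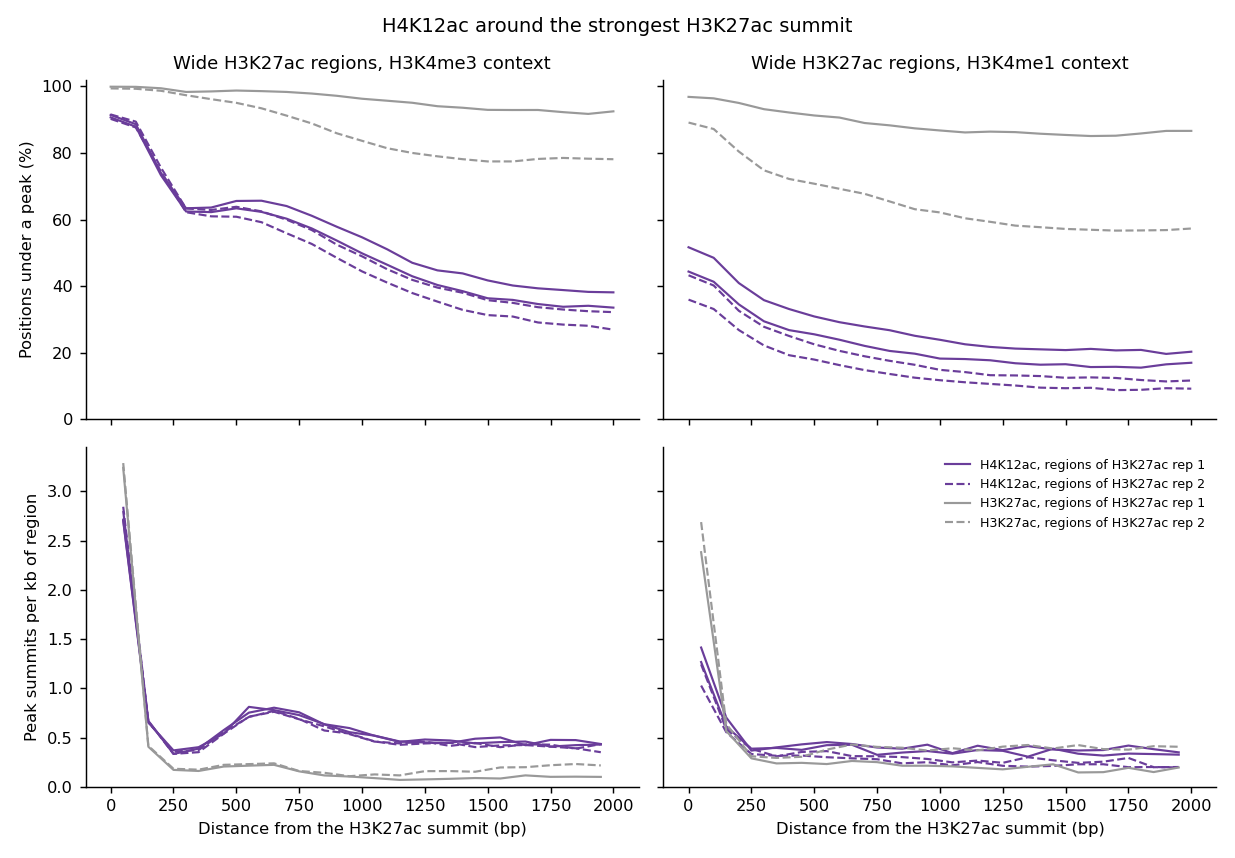
H4K12ac (purple, both of its libraries) and H3K27ac of the other replicate (grey) in wide H3K27ac regions, by distance (bp) from the strongest H3K27ac summit; solid lines are regions of H3K27ac replicate 1 and dashed lines those of replicate 2. The upper row gives positions under a peak (%) and the lower row peak summits per kb of region, in steps of 100 bp; in the H3K4me3 context (left) the H4K12ac summits have a second crest between 500 and 700 bp, at 0.737 to 0.795 per kb, and in the H3K4me1 context (right) the density over that range is 0.295 to 0.444 per kb.

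A small set of wide H3K27ac regions had no H4K12ac in either list. They numbered 832 of 10291 in H3K27ac replicate 1 (8.08%) and 1976 of 13983 in replicate 2 (14.1%). Of these, 686 and 1618 were in the H3K4me1 context and 63 and 124 in the H3K4me3 context. Over all H3K27ac regions the median H3K27ac fold was 3.63 and 3.66. Among the wide regions without H4K12ac it was 8.75 and 9.55, compared with 40.6 and 36.8 for wide regions with H4K12ac in both lists. Within the H3K4me1 context the medians were 8.90 and 9.55 against 16.5 and 18.7, and the median widths 2473.5 and 2662 bp against 3182.5 and 3775.5 bp. Other H4 acetylation marks were called there less often than in wide regions with H4K12ac in both lists, though H4K5ac and H4K5acK8ac still met most of them. H4K5ac met 63.7% ± 5.47 and 99.5% ± 0.301 of the respective sets. H4K5acK8ac met 62.8% ± 5.72 and 98.6% ± 0.751, and H4K8ac 36.6% ± 11.4 and 89.6% ± 0.564. BRD2 met 2.06% ± 0.0224 of them, compared with 67.9% ± 1.26 of the wide regions with H4K12ac in both lists. Over the pairings with the BRD2 lists these shares ran from 0.911% to 3.24% and from 55.3% to 80.3%. The sets differ in context, and within the H3K4me1 context the BRD2 shares were 1.48% ± 0.348 and 30.01% ± 1.18. There they ran from 0.803% to 2.66% and from 16.1% to 44.1%.

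H4K12ac regions that met no H3K27ac peak in either list made up 38.1% of H4K12ac replicate 1 and 35.7% of replicate 2. They were narrow, with a median width of 242 and 236 bp, and only 4.02% and 2.83% had a −log10 q of at least 5. Among H4K12ac regions with bases in both H3K27ac lists that share was 47.1% and 43.8%, and the median width was 477 and 454 bp. Those outside H3K27ac were found again in the other H4K12ac replicate in 16.1% and 19.6% of cases, and those inside in 73.5% and 81.5%. H4K5ac of both lists met 13.98% and 13.97% of the outside regions and 88.9% and 90.2% of the inside ones. H3K27me3, a mark of Polycomb-repressed chromatin written on the same residue as H3K27ac, met 10.6% and 9.87% of the outside regions and 0.529% and 0.503% of the inside ones. A single lysine cannot carry both marks at once, so this contrast is not independent of the split by H3K27ac. The H3K27me3 lists covered 126 and 147 Mb of the genome.

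Stronger H4K12ac calls lay on H3K27ac more often. Between a −log10 q of 1.3 and 2, a mean of 31.9% of the regions of H4K12ac replicate 1 and of 35.9% of replicate 2 held H3K27ac, averaged over the 2 H3K27ac lists. Between 5 and 10 the means were 85.4% and 89.8%, and at 20 or more 99.7% and 99.8%. Overlap with H3K4me3 followed the same order: peaks of both lists met 10.2% and 13.6% of the weakest class and 90.2% and 92.8% of the strongest. Replication did too, from 18.6% and 27.7% to 100% in both. The strongest H4K12ac peaks were nearly all on H3K27ac and mostly at H3K4me3. Median peak width also rose from the weakest to the strongest class, from 232 and 231 bp to 1403 and 1412 bp in replicates 1 and 2. A wider peak meets more regions through its extent alone, and widths were not matched between the classes.

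**Figure D5:**
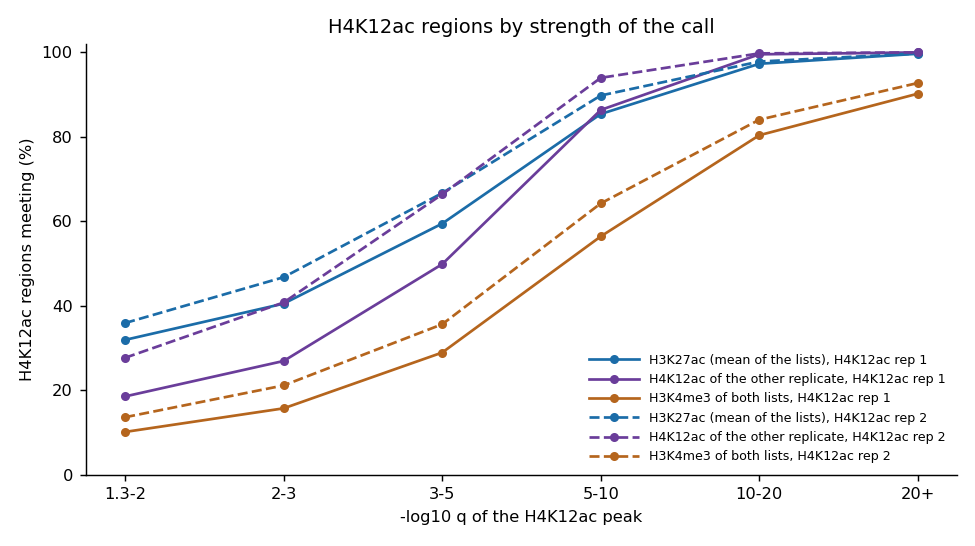
Share (%) of H4K12ac regions that met H3K27ac (mean of its 2 lists), H4K12ac of the other replicate, and H3K4me3 of both lists, by the −log10 q of the H4K12ac peak. Peak width was not matched between the classes. Solid lines are H4K12ac replicate 1 and dashed lines replicate 2; H3K27ac goes from 31.9% and 35.9% in the weakest class to 99.7% and 99.8% in the strongest.

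Single regions show the range, in hg19 coordinates. The H4K12ac region with the highest fold in both lists among those on H3K27ac was chr2:232571881-232572990, with an H4K12ac fold of 21.7 and 24.01 and an H3K27ac fold of 91.0 and 69.6 in replicates 1 and 2. It is 1110 bp long, lies wholly under H3K4me3 in both lists and met BRD2 in both. The next 4 of that ranking, on chromosomes 1, 17, 1 and 2, were 2366 to 2615 bp long. They also met H3K4me3, BRD2 and all 4 H4 acetylation marks in both lists. The strongest H4K12ac region with no H3K27ac in either list, chr11:57112290-57113283, had an H4K12ac fold of 8.67 and 8.66. It met H4K5ac, H4K8ac, H4K5acK8ac, H3K4me1 and BRD2 in both lists and H3K4me3 in neither. All 5 of the strongest such regions met the other 3 H4 acetylation marks in both lists, and 3 of them met H3K4me3. These 5 are not typical of H4K12ac regions outside H3K27ac. Over all of those, in H4K12ac replicates 1 and 2, H4K5acK8ac met 9.53% and 10.3% and H4K5ac 13.98% and 13.97%. H4K8ac met 10.9% and 10.6% and H3K4me3 6.04% and 6.59%.

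Among regions formed from bases in both H3K27ac lists, joined over gaps of up to 1000 bp, 962 were at least 10000 bp long, and 952 of those held H4K12ac. Of all 41756 joined regions, 39.97% were without H4K12ac, and longer regions meet more peaks through their extent alone. The widest was chr15:67354446-67492448, of 138003 bp. H4K12ac covered 55.2% and 44.03% of it with 89 and 72 peaks, while H3K4me3 covered 7.79% and 8.64% and H3K4me1 90.04% and 95.9%. In chr22:30582548-30659893, of 77346 bp, H4K12ac covered 82.8% and 76.8%, and in chr9:37994692-38071196, of 76505 bp, 36.1% and 31.4%. The widest of these regions without an H4K12ac base in either list, chrX:45658332-45671818, was 13487 bp long, with an H3K27ac fold of 16.1 and 19.1. It met H4K5ac, H4K5acK8ac and H3K36me3 in both lists and H3K4me3 in neither. Of the 5 widest such regions, 4 met H4K5acK8ac and all 5 met H4K5ac in both lists.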

How the data were processed

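Peak lists of 22 libraries (11 targets, 2 replicates each) were used, with groups and replicate numbers from the sample titles. The submitters' processing notes name BWA, MACS2 and hg19; versions, settings and the control are not given in the sources used here. Each list has 10 columns and no header. Fold enrichment, as deposited, is a ratio of signal over the caller's background estimate. The authors' −log10 p and −log10 q were used to filter and rank peaks within a list, and the deposited score was not used. Peaks with q of at most 0.05 were kept.

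Overlaps (at least 1 bp), covered bases and summit positions were computed with Python 3.11.15, numpy 2.4.6, pandas 2.3.3 and scipy 1.17.1, and plots with matplotlib 3.10.9. Each value was computed for the 4 pairings of libraries. No p-value was derived from peaks, which are not replicates. The functions were tested on simulated data. Depth is unknown. The lists and classes were chosen with earlier results of these data known. Regions named are the 5 widest or strongest of 4 fixed rankings, with chromosomes 8 and Y left out. Genes and sequences were not analysed, since no annotation of hg19 was used here. Same-numbered replicates did not deviate together (r = −0.0503 over 22596 bins of 100000 bp), so numbers were not taken as pairs.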

Additional observations from a re-analysis of the deposited data

How the results depend on the processing

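Of the 8 results, the share of H3K27ac regions and the share of H4K12ac regions have no direction and could not reverse. The differences, with 1 exception, kept their direction under all alternatives run. The exception was the summit position, which was 8.49 with the 10000 strongest H4K12ac peaks, 5.24 with H3K27ac peaks joined over 1000 bp and 2.19 with wide meaning at least 4000 bp. In the order used in the text (share of H3K27ac regions, share of H4K12ac regions, wide minus narrow, the same in summit windows, H3K4me3 minus H3K4me1, the same at equal widths), the 10000 strongest H4K12ac peaks gave 7.80, 98.5, 40.2, 36.2, 34.9 and 22.8. A −log10 q of at least 5 moved the last 5 to 89.6, 53.2, 47.8, 54.6 and 45.3. Joined H3K27ac peaks gave 40.7 for the first, 54.2, 44.1, 55.4 and 47.5 for the differences, and 31.9 for bases under H3K4me3 against the others. With all deposited peaks the share of H4K12ac regions was 52.4% and the context difference 50.5. With an overlap of 50% of the shorter region the former was 55.4%. Wide meaning at least 4000 bp gave 78.3 and 70.2 in windows. Context from 1 list of each mark gave 54.5, and matching H3K27ac fold as well as width, added after the data were seen, 25.8. The causes were not tested; the stricter lists hold fewer peaks. Leaving out each library moved the context difference between 50.6 and 53.8, and no position value exists without both H3K27ac libraries. With the replicate block (same-numbered libraries only) the values were 28.2, 57.7, 68.7, 60.2, 52.3 and 36.7, with −4.54 for position and 20.1 for bases under H3K4me3. Unknown depth limits every absence of a peak.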

Other observations

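H3K36me3, the mark of transcribed gene bodies, divided narrow H3K27ac regions by their H4K12ac. In the H3K4me1 context and under 500 bp, regions that met H3K36me3 in both lists (6761 and 4754 in H3K27ac replicates 1 and 2) held H4K12ac in 6.21% ± 1.11 of cases (SD between the 2 H3K27ac libraries, n = 2, throughout). Those that met it in neither list (12798 and 10129) did so in 20.2% ± 1.23. Their median H3K27ac fold was 3.19 and 2.85 with H3K36me3 and 3.23 and 3.00 without. From 500 to under 1000 bp the shares were 12.7% ± 1.07 and 31.8% ± 4.91. In this context the share was lower with H3K36me3 in all 20 comparisons (5 width classes in 4 pairings), with differences from −30.8 to −0.646 percentage points. In the H3K4me3 context it was lower in 12 of 20. Promoter regions under 500 bp held H4K12ac in 7.22% ± 1.52 with H3K36me3 and 46.3% ± 1.62 without it, and those of 500 to under 1000 bp in 17.7% ± 1.89 and 71.1% ± 3.23. In the latter class the median H3K27ac fold also differed, at 4.50 and 3.88 with H3K36me3 and 8.20 and 7.33 without, and its part in the difference was not tested. From 2000 bp upward the promoter shares were between 95.5% and 99.4% in every pairing on both sides. The H3K36me3 split was looked at after earlier results of these data were known.

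Chromosomes differed in the share of H3K27ac regions holding H4K12ac. Chromosome 19 had 36.2% ± 9.15 and chromosome 17 34.0% ± 7.97, while chromosome 4 had 20.8% ± 0.399 and chromosome 13 22.7% ± 0.00383, with 21.6% to 23.8% over the pairings. Chromosomes 19 and 17 stood out mainly with H3K27ac replicate 2, at 43.7% and 41.6% and at 41.5% and 37.8%. With replicate 1 they had 30.2% and 29.2% and 29.8% and 26.9%, beside 27.2% and 24.9% for the whole list. On chromosome 22 the share was 20.5% and 19.3% for H3K27ac replicate 1 but 34.4% and 33.2% for replicate 2, whose list held 2096 regions there against 3665.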
